A study of Mus musculus with 79 samples.

Results

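The 10 genes described here encode neuronal calcium sensors and calcium buffers: Calb1, Calb2, Pvalb, Hpca, Hpcal1, Hpcal4, Ncald, Ncs1, Vsnl1 and Necab2. They were taken by name from a table of 25899 genes, all 10 were listed in it, and each was compared across the 5 groups of libraries that the study made from dopamine receptor neurons of the mouse brain. A library held mRNA bound to ribosomes that carried eGFP-tagged L10a, a ribosomal protein, pulled down with antibodies to GFP from the pooled tissue of 3 C57BL/6J mice of both sexes. All mice were heterozygous for a bacterial artificial chromosome transgene in which the promoter of either the D1a or the D2 dopamine receptor drove the tagged protein, so the promoter of the transgene, not a sort, defines "D1" and "D2" here, and every group carries a tag. The labels name no drug and give no age, and no D2 libraries of the prefrontal cortex were analysed here. The groups were D1 dorsal striatum (15 libraries), D2 dorsal striatum (16), D1 ventral striatum punched at the nucleus accumbens (15), D2 ventral striatum (14) and D1 prefrontal cortex (19).

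Calcium that enters a neuron through channels or leaves its stores is read and buffered by proteins that bind it in a helix-loop-helix fold, the EF hand. Calbindin (Calb1), calretinin (Calb2) and parvalbumin (Pvalb) bind calcium and so shape its rise and decay, and are classical markers of neuron classes: calbindin of the striatal matrix, parvalbumin of fast-spiking interneurons, calretinin of another interneuron class. Hippocalcin (Hpca), hippocalcin-like 1 and 4 (Hpcal1, Hpcal4), neurocalcin delta (Ncald), neuronal calcium sensor 1 (Ncs1) and visinin-like 1 (Vsnl1) form the neuronal calcium sensor family, of which most members carry an N-terminal myristoyl group and move to membranes when they bind calcium. Necab2 is an EF-hand protein of the striatum that binds adenosine and metabotropic glutamate receptors.

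The 6 neuronal calcium sensor genes are close relatives, and the likeness of their sequences bears on whether short reads can tell them apart. The first 60 bases of each coding sequence, from the ATG, are shown for that reason, read from the GENCODE M21 transcripts of GRCm38. Capitals mark the bases that differ from Hpca at the same position.
Hpca: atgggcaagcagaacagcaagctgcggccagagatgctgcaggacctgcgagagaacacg
Hpcal1: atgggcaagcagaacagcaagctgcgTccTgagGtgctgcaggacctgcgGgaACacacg
Ncald: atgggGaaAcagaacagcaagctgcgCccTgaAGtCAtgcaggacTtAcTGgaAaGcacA
Hpcal4: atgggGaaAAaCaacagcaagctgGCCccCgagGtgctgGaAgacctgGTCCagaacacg
Vsnl1: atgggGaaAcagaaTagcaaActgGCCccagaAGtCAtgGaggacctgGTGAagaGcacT
Ncs1: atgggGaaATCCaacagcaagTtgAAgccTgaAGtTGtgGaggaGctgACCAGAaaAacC
Hpcal1 differed from Hpca at 6 of these 60 bases, Ncald and Hpcal4 at 15 each, Vsnl1 at 18 and Ncs1 at 23. Over the whole coding sequence Hpca was 86.0% identical to Hpcal1 and 79.6% to Ncald, and Hpcal4 was 82.4% identical to Vsnl1. The longest run of bases shared exactly by any 2 of the 10 genes was 46 bases long, positions 306 to 351 of the coding sequences of both Hpca and Ncald.
Shared run: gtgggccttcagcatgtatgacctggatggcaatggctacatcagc
Reads were 50 bases long, and no pair of the 10 genes shared a 50-base window (0 windows) over the transcripts compared, the longest coding transcript of each gene. Calb1 and Calb2, the most alike of the buffers, were 63.1% identical with no shared run over 12 bases.

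On GRCm38, Calb1 lies at chr4:15881264-15908064, Calb2 at chr8:110137502-110168210, Pvalb at chr15:78191114-78206400, Hpca at chr4:129111570-129122036, Hpcal1 at chr12:17690856-17791933 and Hpcal4 at chr4:123183227-123194701. Ncald lies at chr15:37366175-37792570, Ncs1 at chr2:31245823-31295989, Vsnl1 at chr12:11325242-11436613 and Necab2 at chr8:119446719-119472640. Exons of Hpca overlap those of Tmem54 on the opposite strand, and exons of Ncald overlap those of Gm28221 on the opposite strand and Gm49397 on the same strand. The kit described in the labels does not mark strand, so reads in those overlaps cannot be assigned and the levels of Hpca and Ncald are uncertain to that extent.

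Values are CPM, read counts that the authors scaled by a library total that is not given in the sources used here. The listed genes of a library summed to between 309566 and 401527 CPM; this sum, as a percentage of the total that CPM imply, is called the share in genes below. Between 7350200 and 30834630 reads per library fell in genes, with a median of 17496068. Differences between groups are differences of mean log2(CPM + 0.5), a scale that understates the change of genes near 1 CPM, and were tested with limma over all genes with at least 1 CPM in enough libraries. A gene is said to rise, fall or differ where the Benjamini-Hochberg adjusted p over all genes tested was under 0.05. Because each library pools mRNA pulled down from many cells, fewer cells of a type and less RNA per cell cannot be told apart in any of the values given here. The labels call the samples separate pools of mice but give no litter or day, so p-values measure the spread between these pools. Whether regions of a line came from the same mice is not given either, and the tests between regions treat their libraries as separate.

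The labels were checked first on the receptors. Drd1a ranged from 139 to 288 CPM in the D1 striatal libraries and from 6.86 to 40.6 CPM in the D2 striatal ones, and Drd2 from 337 to 1596 CPM in D2 and from 2.16 to 16.2 CPM in D1 striatal libraries, with no overlap in either case. In prefrontal cortex Drd1a was at 9.52 to 44.8 CPM, which overlaps the range of the D2 striatal libraries and lies below every D1 striatal one, so this receptor's mRNA does not set those libraries apart as D1. Summed over 7 markers of cortical glutamatergic neurons (Slc17a7, Neurod6, Neurod2, Tbr1, Nrn1, Cux2 and Fezf2), the median was 642 CPM in prefrontal cortex, 100.5 CPM in D1 dorsal, 80.1 CPM in D1 ventral, 23.0 CPM in D2 ventral and 10.7 CPM in D2 dorsal striatum. The D2 striatal libraries thus held less of these markers than the D1 ones, and 7 of 7 were higher in D1 in dorsal (12.8% of all genes) and 6 of 7 in ventral striatum (24.1%). Microglial and endothelial markers were close to 0: the 8 together had a median of at most 4.46 CPM in a group, and Cldn5 had a median of 0 CPM in each. Summed, 6 astrocyte markers had a median of 320 CPM in prefrontal cortex and of 45.9 (D2 dorsal) to 69.0 (D1 dorsal) in striatum. For 6 oligodendrocyte markers it was 111 CPM in D2 dorsal, 81.1 in D2 ventral, 73.9 in D1 dorsal and 47.2 in D1 ventral striatum. In cortex it was 40.6. For 5 cholinergic interneuron markers it was 15.4 CPM in D2 ventral, 8.89 in D2 dorsal striatum and at most 4.36 in other groups. Their part in the values below was not tested. In D1 dorsal striatum replicates 13 and 4 lay farthest from the other libraries of their group over all genes, as did replicates 6 and 2 in D2 dorsal striatum, 14 and 15 in D1 ventral striatum, 14 and 6 in D2 ventral striatum, and 10 and 19 in prefrontal cortex. Without these 10 libraries each call and direction given below for the 10 genes in a comparison of 2 groups, or of receptor by region, stayed as it was.

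The plot of the 10 genes by library shows 3 kinds of pattern. Calb1, Hpca and Necab2 were lowest in prefrontal cortex. Pvalb, Ncald and Vsnl1 were highest there. Calb2, Hpcal1, Hpcal4 and Ncs1 had their highest mean, or a mean level with the highest, in D1 ventral striatum.

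**Figure D1:**
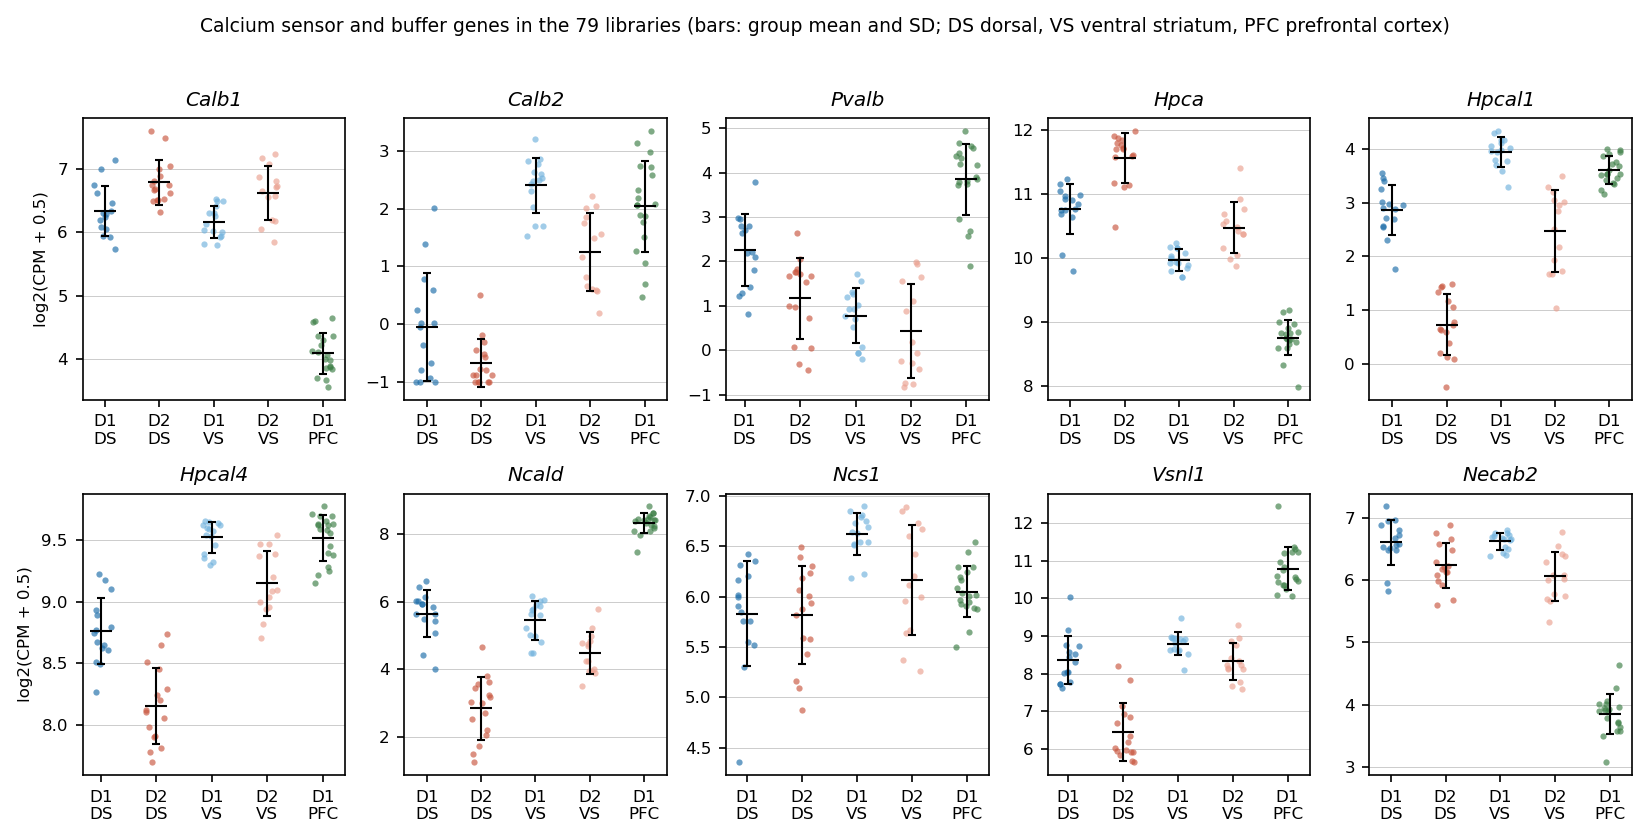
Level of each gene as log2(CPM + 0.5) in each of the 79 libraries, by group (15 D1 dorsal striatum, 16 D2 dorsal striatum, 15 D1 ventral striatum, 14 D2 ventral striatum, 19 D1 prefrontal cortex); bars are group mean and SD, and each panel has its own vertical scale. Calb1 and Necab2 in prefrontal cortex lie below every striatal library, and Ncald and Vsnl1 lie above every striatal library.

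Calb1, the buffer that marks the striatal matrix, was a striatal gene in these libraries. It ranged from 52.9 to 140 CPM (median 77.4) in D1 dorsal striatum, from 79.2 to 193 (median 104) in D2 dorsal striatum, from 55.2 to 91.9 (median 69.7) in D1 ventral striatum and from 57.0 to 149 (median 102) in D2 ventral striatum. In prefrontal cortex it ranged from 11.3 to 24.6 CPM with a median of 16.2, so that no cortical library reached the lowest striatal one. The cortical level lay below D1 dorsal striatum by a log2 difference of -2.24 (SE 0.12, limma adjusted p 1.01e-19) and below D1 ventral striatum by -2.07 (SE 0.10, adjusted p 1.3e-21). Within the striatum D2 libraries were higher than D1 libraries, with D1 minus D2 at -0.45 in dorsal (SE 0.13, adjusted p 0.00932) and -0.45 in ventral striatum (SE 0.12, adjusted p 0.00317). Both calls were lost within the libraries whose names begin with EM (-0.48, adjusted p 0.0928, in dorsal and -0.34, adjusted p 0.0932, in ventral striatum); with the share in genes as a term the dorsal difference came to -0.28 (adjusted p 0.0471) and the ventral one to -0.06 (adjusted p 0.819). The D1 and D2 ranges overlapped in both regions. The difference between dorsal and ventral striatum did not pass in D1 (0.17, 95% interval -0.07 to 0.41) or D2 libraries (0.17, interval -0.10 to 0.45). In the order of group means, D2 dorsal, D2 ventral, D1 dorsal and D1 ventral striatum each did not pass the test against the next, and the step from D1 ventral striatum down to prefrontal cortex did.

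Calb2, which encodes calretinin, was a scarce mRNA with a regional difference. Its level in D1 ventral striatum ran from 2.37 to 8.74 CPM (median 5.13), in D2 ventral striatum from 0.640 to 4.17 (median 2.03) and in prefrontal cortex from 0.890 to 9.66 (median 3.67). In dorsal striatum the median was 0.473 CPM in D1 and 0.0614 CPM in D2 libraries, with 3 of 15 and 5 of 16 libraries at 0 reads. Most dorsal libraries thus lay below the ventral and cortical ones, but the ranges overlapped: D1 dorsal replicates 6 (3.55 CPM) and 14 (2.12 CPM) lay above the median of D2 ventral striatum. In D1 neurons dorsal minus ventral striatum was -2.45 (SE 0.25, adjusted p 8.88e-10), and prefrontal cortex stood above dorsal striatum by 2.09 (SE 0.27, adjusted p 1.46e-08) while its difference from ventral striatum did not pass (-0.37, 95% interval -0.80 to 0.07). Calb2 met the filter of the first 2 of these comparisons through the higher group: 1 CPM was reached by 15 of 15 D1 ventral and 18 of 19 cortical libraries but by 4 of 15 D1 dorsal ones. In ventral striatum D1 exceeded D2 by 1.15 (SE 0.20, adjusted p 2.94e-05), a call that ended with the share in genes as a term (0.67, adjusted p 0.0896). D2 dorsal libraries were too low for the filter, so the main fits did not test Calb2 there between receptors or between regions of D2 neurons. Within EM libraries it met the filter through the ventral group, with dorsal minus ventral at -2.24 in D2 neurons. The fit of all 5 groups, which tested 12334 genes, held Calb2 only through its ventral and cortical levels. In dorsal striatum 1 CPM was reached by 4 of 15 D1 and 0 of 16 D2 libraries. The D1 minus D2 dorsal value of that fit, 0.62 (SE 0.24, limma adjusted p 0.0379), is therefore not taken as a difference between these groups.

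Pvalb, the parvalbumin gene, was highest in prefrontal cortex, at 3.24 to 30.2 CPM (median 14.3). D1 dorsal striatum followed with 1.27 to 13.4 CPM (median 4.12) and D2 dorsal striatum with 0.230 to 5.70 (median 2.54). The ventral levels were 0.365 to 2.78 CPM (median 1.42) in D1 and 0.0654 to 3.46 (median 0.550) in D2 libraries, where the coefficient of variation reached 103%. Every cortical library lay above every D1 ventral one, a difference of 3.07 (SE 0.23, adjusted p 2.76e-15), and cortex exceeded D1 dorsal striatum by 1.60 (SE 0.26, adjusted p 9.51e-07). In D1 neurons the dorsal level exceeded the ventral one by 1.47 (SE 0.24, adjusted p 1.09e-05), and the D2 difference of 0.74 did not pass (SE 0.33, adjusted p 0.0901); without D2 ventral replicate 2 it came to 0.86 and passed (adjusted p 0.0464). D1 exceeded D2 in dorsal striatum by 1.08 (SE 0.29, adjusted p 0.0051), a call that was lost within the libraries whose names begin with EM (0.70, adjusted p 0.0533); in ventral striatum the difference of 0.35 did not pass (adjusted p 0.327). In the fit of all 5 groups the steps from cortex to D1 dorsal and on to D2 dorsal striatum passed, and those below did not. Pvalb met the filter of D1 ventral against cortex or D1 dorsal, and of D2 against D1 dorsal striatum, through the higher group. In the lower group 1 CPM was reached by 10 of 15 D1 ventral and 12 of 16 D2 dorsal libraries. Summed markers of GABA interneurons were likewise highest in cortex and next in D1 dorsal striatum: their medians were 306 CPM in prefrontal cortex, 118 in D1 dorsal, 61.1 in D2 dorsal, 76.2 in D1 ventral and 65.1 in D2 ventral striatum. Of the 15 markers, 6 of 9 tested were higher in D1 than D2 dorsal striatum, where 12.8% of all genes were, and 12 of 14 tested were higher in cortex than in D1 dorsal striatum, where 32.3% of all genes were. Single markers did not all follow Pvalb: Sst, of another interneuron class, had medians of 78.8 CPM in cortex, 16.5 in D1 dorsal, 5.50 in D2 dorsal, 9.40 in D1 ventral and 10.5 in D2 ventral striatum, and Reln was lower in cortex than in D1 dorsal striatum (-2.63, SE 0.11, adjusted p 8.97e-23). The part of interneuron mRNA in the levels of Pvalb and Calb2 was not tested.

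Hpca, hippocalcin, was high in striatum, most so in D2 neurons of the dorsal part. It ranged from 1433 to 4057 CPM (median 3319) in D2 dorsal striatum, from 885 to 2421 (median 1848) in D1 dorsal striatum, from 939 to 2723 (median 1403) in D2 ventral striatum, from 835 to 1199 (median 986) in D1 ventral striatum and from 254 to 582 (median 430) in prefrontal cortex. All 4 steps in this order passed the test in the fit of all 5 groups, the smallest being D1 dorsal over D2 ventral striatum (0.29, SE 0.12, adjusted p 0.0404). Cortical libraries did not overlap with either D1 striatal group, at -2.02 against dorsal (SE 0.11, adjusted p 4.19e-19) and -1.22 against ventral striatum (SE 0.08, adjusted p 1.03e-16). Dorsal exceeded ventral striatum by 0.80 in D1 (SE 0.11, adjusted p 3.43e-07) and by 1.09 in D2 neurons (SE 0.14, adjusted p 2.35e-07). D2 exceeded D1, with D1 minus D2 at -0.79 in dorsal (SE 0.14, adjusted p 3.66e-05) and -0.50 in ventral striatum (SE 0.11, adjusted p 0.000545). Of the 16 D2 dorsal libraries, 12 lay above every D1 dorsal library.

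Hpcal1, the nearest relative of Hpca in sequence, was scarce and ran the other way between receptors. Its level was 2.91 to 11.2 CPM (median 6.95) in D1 dorsal and 0.245 to 2.28 CPM (median 1.11) in D2 dorsal striatum, with no overlap. In ventral striatum it was 9.26 to 19.6 CPM (median 15.3) in D1 and 1.57 to 10.8 CPM (median 5.95) in D2 libraries, where a single D2 library, replicate 2, reached into the D1 range. The D1 minus D2 difference was 2.13 in dorsal (SE 0.18, adjusted p 9.92e-12) and 1.48 in ventral striatum (SE 0.19, adjusted p 2.68e-07). Ventral exceeded dorsal striatum, with dorsal minus ventral at -1.08 in D1 (SE 0.14, adjusted p 6.99e-08) and -1.74 in D2 neurons (SE 0.23, adjusted p 2.3e-07). In the comparisons with D2 dorsal striatum Hpcal1 met the filter through the higher group, as 11 of 16 D2 dorsal libraries reached 1 CPM. Prefrontal cortex, at 8.44 to 15.4 CPM (median 11.1), lay between the D1 striatal groups: it exceeded dorsal striatum by 0.74 (SE 0.12, adjusted p 2.04e-06) and was below ventral striatum by -0.34 (SE 0.09, adjusted p 0.00163). In the fit of all 5 groups the step from D1 ventral striatum to cortex (adjusted p 0.075) and that from D1 dorsal to D2 ventral striatum (0.40, adjusted p 0.0538) did not pass.

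Hpcal4 varied little between libraries, with a coefficient of variation from 8.48% in D1 ventral to 22.6% in D2 dorsal striatum. It was highest in D1 ventral striatum (630.5 to 808 CPM, median 763) and prefrontal cortex (570 to 877 CPM, median 770), with a difference of -0.003 and a 95% interval of -0.13 to 0.13. D2 ventral striatum followed at 418 to 747 CPM (median 545), D1 dorsal striatum at 308 to 600 (median 429) and D2 dorsal striatum at 207 to 426 (median 277), and each of these steps passed the test. In D1 neurons every ventral library lay above every dorsal one, and dorsal minus ventral was -0.76 (SE 0.08, adjusted p 2.56e-09); in D2 neurons it was -0.997 (SE 0.11, adjusted p 4.15e-09), with 13 of 14 ventral libraries above every dorsal one. D1 exceeded D2 by 0.61 in dorsal (SE 0.11, adjusted p 3.04e-05) and 0.38 in ventral striatum (SE 0.08, adjusted p 0.000551), where the call ended with the share in genes as a term (0.32, adjusted p 0.0587).

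Ncald, neurocalcin delta, spanned the widest range between groups of the neuronal calcium sensors. Prefrontal cortex held 177 to 449 CPM (median 340), D1 dorsal striatum 15.6 to 97.3 (median 56.6), D1 ventral striatum 21.7 to 71.0 (median 49.1), D2 ventral striatum 10.9 to 53.8 (median 21.7) and D2 dorsal striatum 1.88 to 24.8 (median 7.58). No cortical library overlapped with any D1 striatal library, at 2.69 over dorsal (SE 0.16, adjusted p 9.21e-18) and 2.88 over ventral striatum (SE 0.14, adjusted p 2.87e-21). D1 exceeded D2 by 2.80 in dorsal striatum (SE 0.27, adjusted p 2.4e-10) and by 0.96 in ventral striatum (SE 0.20, adjusted p 0.000226), the latter a call that ended with the share in genes as a term (0.57, adjusted p 0.163). The D1 dorsal and ventral groups did not differ beyond their spread (0.19, 95% interval -0.24 to 0.62), whereas D2 dorsal lay below D2 ventral striatum by -1.64 (SE 0.27, adjusted p 8.96e-06). The steps from D1 ventral to D2 ventral and from D2 ventral to D2 dorsal striatum passed in the fit of all 5 groups as well.

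Ncs1, which regulates potassium channels and neurotransmitter release, had the flattest profile. Its medians were 99.6 CPM in D1 ventral (range 72.6 to 119), 71.2 in D2 ventral (37.9 to 118), 64.3 in prefrontal cortex (44.9 to 92.8), 59.7 in D2 dorsal (28.9 to 89.6) and 59.4 in D1 dorsal striatum (20.0 to 85.3). D1 ventral striatum stood above D1 dorsal striatum (dorsal minus ventral -0.79, SE 0.14, adjusted p 2.15e-05) and above prefrontal cortex (-0.57, SE 0.08, adjusted p 7.11e-08). It also exceeded D2 ventral striatum by 0.45 (SE 0.14, adjusted p 0.00894), a call that was lost within EM libraries and, at -0.01 (adjusted p 0.975), with the share in genes as a term. In dorsal striatum D1 and D2 were within 0.02 of each other, with a 95% interval of -0.33 to 0.36. Among the other 4 groups no step in the order of means passed the test.

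Vsnl1, visinin-like 1, was highest in prefrontal cortex, at 1068 to 5560 CPM (median 1539). It ranged from 273 to 717 CPM (median 463) in D1 ventral striatum, from 197 to 1039 (median 315) in D1 dorsal striatum, from 193 to 624 (median 301) in D2 ventral striatum and from 49.5 to 296 (median 68.8) in D2 dorsal striatum. Each cortical library exceeded each D1 striatal library, by 2.42 over dorsal (SE 0.19, adjusted p 3.46e-14) and 1.99 over ventral striatum (SE 0.15, adjusted p 6.58e-15). D1 exceeded D2 dorsal striatum by 1.92 (SE 0.23, adjusted p 4.64e-08). In ventral striatum the receptor difference was 0.47 (SE 0.14, adjusted p 0.00675), which came to 0.99 with the share in genes as a term and lost its call within EM libraries (0.40, adjusted p 0.0781). D2 dorsal lay below D2 ventral striatum by -1.88 (SE 0.22, adjusted p 1.65e-08). In D1 neurons dorsal minus ventral was -0.43 (SE 0.17, adjusted p 0.0478), a call that ended under 6 of 11 alternatives, among them scaling by median ratios (-0.32, adjusted p 0.161) and edgeR on reads recovered from the CPM (-0.20, adjusted p 0.448). In the fit of all 5 groups no step among D1 ventral, D1 dorsal and D2 ventral striatum passed.

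Necab2 had the largest fall in cortex of the 10 members. Its range was 55.9 to 145 CPM (median 95.5) in D1 dorsal, 82.9 to 111 (median 101) in D1 ventral, 48.3 to 118 (median 72.9) in D2 dorsal and 39.9 to 110 (median 65.9) in D2 ventral striatum. In prefrontal cortex it was 7.93 to 24.3 CPM (median 14.5), below every striatal library. The cortical difference was -2.76 against D1 dorsal (SE 0.11, adjusted p 5.88e-23) and -2.77 against D1 ventral striatum (SE 0.09, adjusted p 4.18e-27). The difference between dorsal and ventral striatum did not pass in D1 (-0.01, 95% interval -0.21 to 0.18) or D2 neurons (0.18, interval -0.09 to 0.45). D1 exceeded D2 by 0.56 in ventral (SE 0.11, adjusted p 7.92e-05) and by 0.37 in dorsal striatum (SE 0.13, adjusted p 0.0279), where 3 of 15 D1 libraries lay above every D2 library. With the share in genes as a term both calls ended (0.27, adjusted p 0.177, in ventral and 0.19, adjusted p 0.154, in dorsal striatum), and the dorsal one also ended within EM libraries and with name code as a term.

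**Figure D2:**
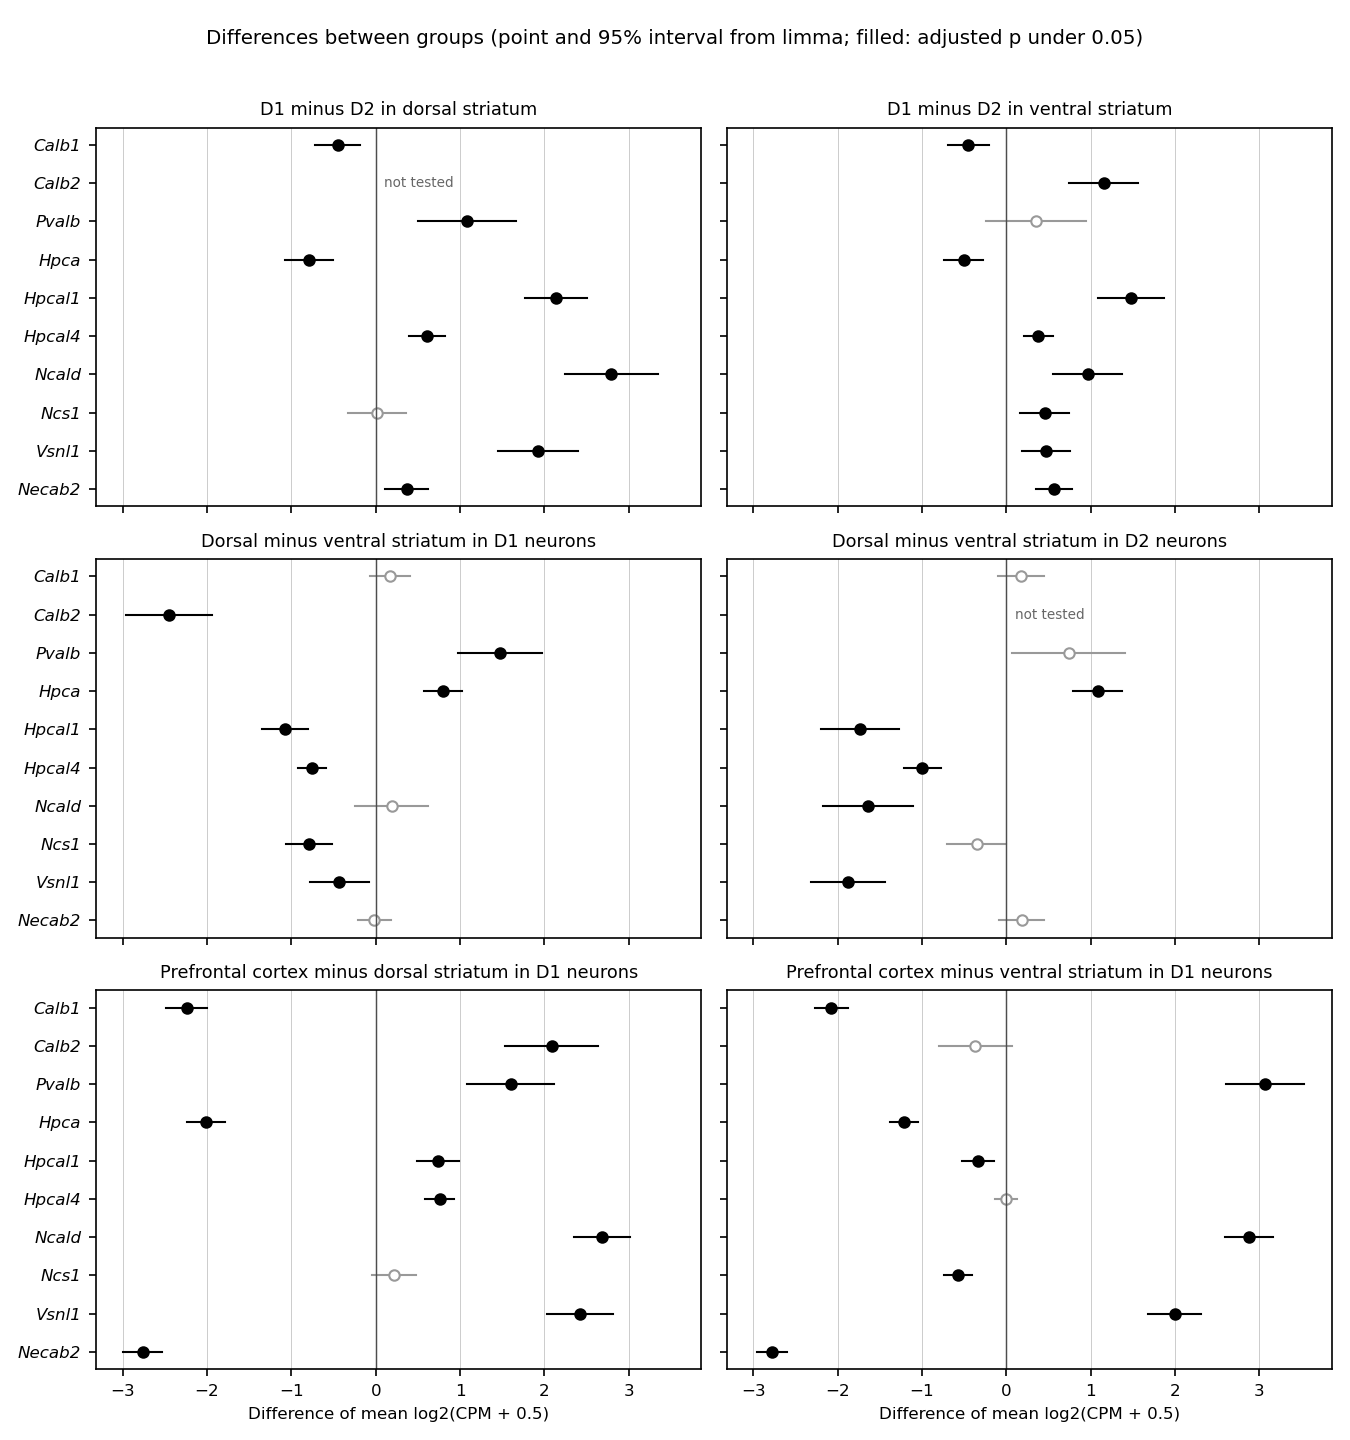
Difference of mean log2(CPM + 0.5) for each gene in 6 comparisons, with the 95% interval from limma; filled points have an adjusted p under 0.05, and Calb2 was not tested where D2 dorsal libraries enter. Differences between receptors are mostly to the right of 0 (D1 higher), with Calb1 and Hpca to the left in both regions, and the cortical comparisons hold the widest differences, from -2.77 for Necab2 to 3.07 for Pvalb.

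Counted over the members, the receptor comparison in dorsal striatum passed for 8 of 9 genes tested, 6 higher in D1 and 2 higher in D2, where 25.9% of all 11090 genes tested passed, 12.8% higher in D1 and 13% higher in D2. Hpcal1 alone did not overlap between the groups, against 1.18% of all genes. The median size of the log2 difference was 0.79 over the members and 0.22 over all genes. In ventral striatum 9 of 10 passed, 7 higher in D1 and 2 in D2, against a background of 47.7% (24.1% and 23.6%). No member was free of overlap there (0 of 10, against 1.34% of all genes), and the median sizes were 0.49 and 0.29. Between dorsal and ventral striatum 7 of 10 passed in D1 neurons (2 higher in dorsal, 5 in ventral; background 34.6%, or 10.1% and 24.5%) and 5 of 9 in D2 neurons (1 and 4; background 28.5%, or 7.93% and 20.6%). Hpcal4 in D1 neurons was the single member without overlap (1 of 10, against 2.65% of all genes), and D2 neurons had 0 of 9, against 1.46%. The median difference of all genes in these regional comparisons was -0.12 in each receptor and moved to -0.01 in D1 and 0.00 in D2 with scaling by median ratios, which turned the split of all calls from 1144 higher and 2774 lower in dorsal striatum to 1663 and 1642 in D1, and from 887 and 2302 to 1398 and 1336 in D2 neurons. No member that passed in these regional comparisons changed direction under that scaling; Necab2 in D1 neurons, which did not pass, went from -0.01 to 0.10. Prefrontal cortex differed from D1 dorsal striatum for 9 of 10 members (6 higher, 3 lower; background 54.8%, or 32.3% and 22.5%) and from D1 ventral striatum for 8 of 10 (3 higher, 5 lower; background 62.8%, or 27.7% and 35.1%). Groups did not overlap for 5 and 6 members in these comparisons, against 10.5% and 12.6% of all genes. These 2 comparisons share the cortical libraries, and each D1 striatal group also enters a receptor comparison, so the counts are not independent of each other.

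Names of libraries begin with codes whose meaning the labels do not give, and the codes are not spread evenly: EM and OdP hold 8 libraries each in D2 dorsal striatum, while D1 dorsal striatum has 11 of EM and none of OdP. Within EM libraries 5 members differed between D1 and D2 dorsal striatum: Ncald (2.40), Hpcal1 (1.88), Vsnl1 (1.83), Hpcal4 (0.50) and Hpca (-0.88). Calb1 and Necab2 (0.29, adjusted p 0.282) kept their direction but not the call there. With name code as a term 6 members passed, and Necab2 (0.29, adjusted p 0.202) and Pvalb (0.70, adjusted p 0.0708) did not. In ventral striatum 6 members differed within EM libraries, and Calb1, Ncs1 (0.35, adjusted p 0.0984) and Vsnl1 no longer passed. In ventral striatum the share in genes had a mean of 35.1% ± 1.64 for the 15 D1 libraries and 38.0% ± 1.505 for the 14 D2 libraries (SD). With that share as a term in the fit, 3 of the 10 members still passed between D1 and D2 ventral striatum, namely Hpca, Hpcal1 and Vsnl1.

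The receptor difference of Ncald and Vsnl1 depended on the region. The difference of differences, dorsal D1 minus D2 less ventral D1 minus D2, was 1.83 for Ncald (SE 0.35, limma adjusted p 0.000455) and 1.45 for Vsnl1 (SE 0.29, adjusted p 0.00073). These were the 2 of 10 members that passed, where 2.64% of 11873 genes passed, 1.93% with a positive and 0.707% with a negative value. In both genes the D2 dorsal libraries were the low group and the other 3 striatal groups lay closer together. Hpcal1 pointed the same way without passing (0.66, SE 0.27, adjusted p 0.215), and it passed within EM libraries (0.87, adjusted p 0.00567) and with edgeR (1.04, adjusted p 0.042). Within EM libraries Ncald remained past the threshold (1.60, adjusted p 0.000226) and Vsnl1 did not (1.42, adjusted p 0.0538). With runs of consecutive EM names as a block in limma, a fit added after seeing the data, Vsnl1 passed (1.42, adjusted p 0.0212). The other members had differences of differences from -0.53 (Calb2, 95% interval -1.18 to 0.12) to 0.73 (Pvalb, interval -0.12 to 1.58), none past the threshold. That of Calb2 came to 0.86 with edgeR (adjusted p 0.603). Calb2 met the filter of the receptor by region fit through the ventral libraries, so its value rests on dorsal levels mostly under 1 CPM.

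**Figure D3:**
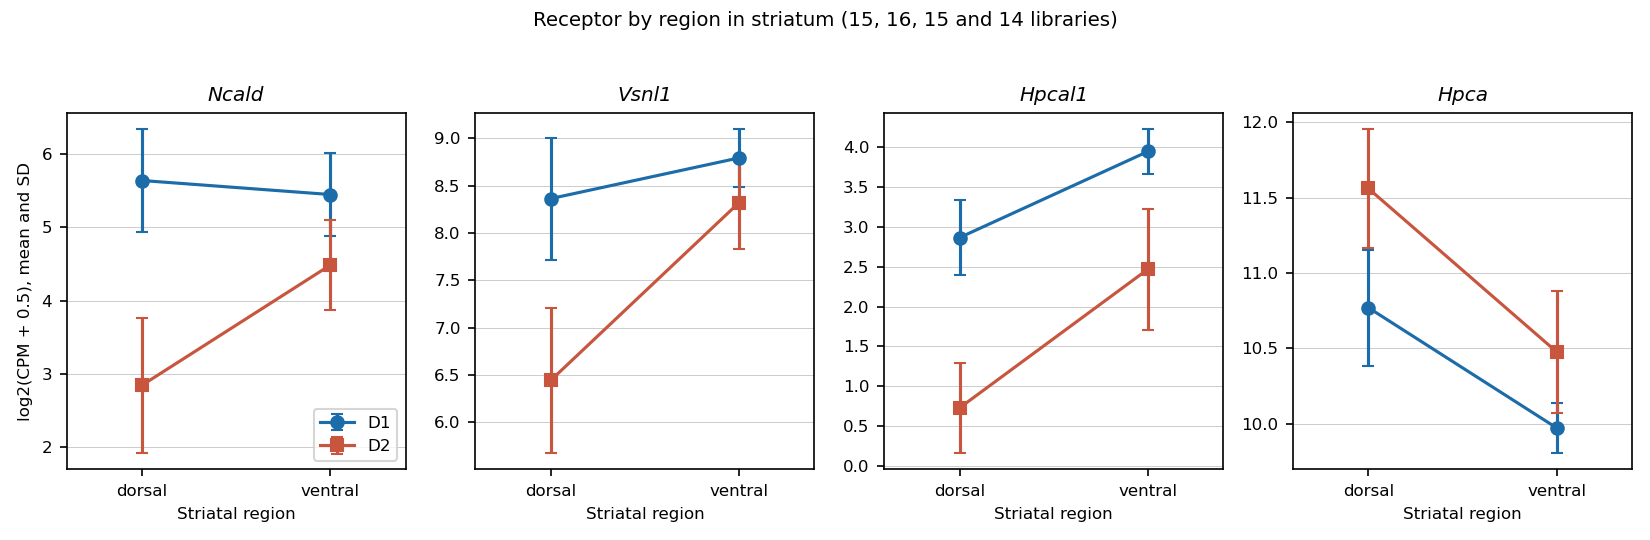
Mean and SD of log2(CPM + 0.5) of 4 genes in dorsal and ventral striatum, for D1 (15 and 15 libraries) and D2 neurons (16 and 14 libraries); each panel has its own vertical scale. For Ncald and Vsnl1 the gap between D1 and D2 is wider in dorsal than in ventral striatum (1.83 and 1.45 on the log2 scale), while the lines of Hpca run nearly parallel (-0.29, adjusted p 0.473).

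Cortical neuron markers moved with some of these results. Taken as a percentage of the prefrontal median, Ncald stood at 16.6% in D1 dorsal, 14.4% in D1 ventral, 6.37% in D2 ventral and 2.23% in D2 dorsal striatum, and the sum of the 7 cortical markers at 15.6%, 12.5%, 3.59% and 1.67% in the same order. The order of the 4 groups was therefore the same for Ncald and for the markers. Vsnl1 stood at 20.5%, 30.1%, 19.6% and 4.47%, and Hpcal1 at 62.6%, 138%, 53.6% and 10.0%. Ncald, Vsnl1 and Hpcal1 were all above the markers in each group. In 3 of the 5 groups the library highest in Ncald was also the highest in these markers. In D1 ventral striatum the library highest in Ncald, replicate 7, held rank 4 in the markers. In prefrontal cortex it was replicate 9, at rank 8 in the markers. Among D2 dorsal libraries replicate 1 had 24.8 CPM of Ncald and 40.3 CPM of the markers, and among D2 ventral libraries replicate 2 had 53.8 and 96.5 CPM. Without D2 dorsal replicate 1, or without D2 ventral replicate 2, no call on Ncald, Vsnl1 or Hpcal1 changed. The part of cortical mRNA in the D1 to D2 differences of Ncald, Vsnl1 and Hpcal1 was not tested.

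**Figure D4:**
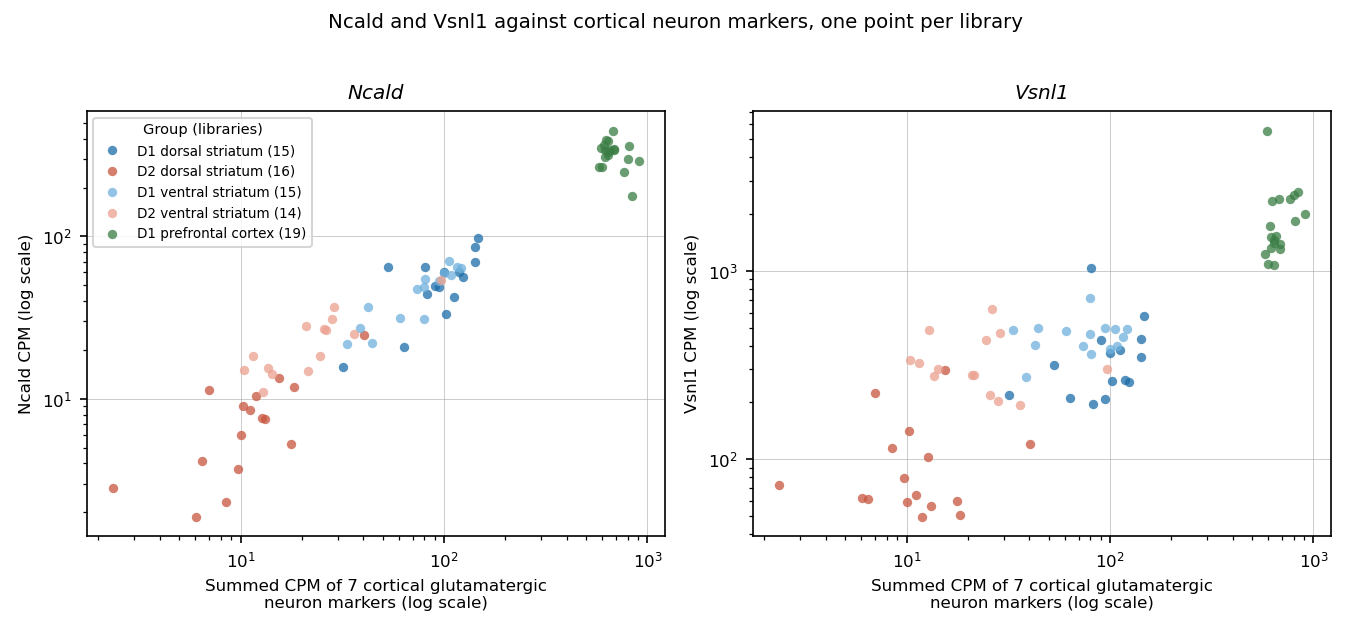
CPM of Ncald (left) and Vsnl1 (right) against the summed CPM of 7 cortical glutamatergic neuron markers, both on log scales, with a point per library coloured by group. Ncald climbs with the markers across the striatal libraries, from D2 dorsal (marker median 10.7 CPM) to D1 dorsal striatum (100.5 CPM), while Vsnl1 shows D2 ventral libraries (marker median 23.0 CPM) at levels close to D1 libraries.

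Hpca and Vsnl1 ran opposite to each other both between and within groups. Over the 79 libraries Pearson's r of their log2(CPM + 0.5) was -0.94, and -0.62 after each group's mean was removed; libraries of a group share their mice's line and region, and the values share each library's scaling, so these are descriptions. In 4 of the 5 groups the library highest in Vsnl1 was the lowest in Hpca: D1 dorsal replicate 13 (1039 CPM of Vsnl1, 885 of Hpca), D2 dorsal replicate 6 (296 and 1433), D1 ventral replicate 15 (717 and 835) and prefrontal replicate 10 (5560 and 254). In D1 dorsal, D2 dorsal and prefrontal groups that same library had the largest share of its total in genes, at 40.0%, 40.2% and 39.7%. Within groups Calb1 ran with Vsnl1 (r 0.47) and against Ncs1 (-0.58) and Hpca (-0.52), whereas Hpca ran with Ncs1 (0.64) and Necab2 (0.60). Base composition also differed among these genes: G and C made up 36.8% of the Calb1 and 43.2% of the Vsnl1 transcript, against 57.8% of Hpca, 54.5% of Ncs1 and 63.6% of Necab2. For the other members, r with Hpca within groups was 0.44 for Hpcal4 (51.2%), -0.08 for Hpcal1 (54.5%) and 0.03 for Calb2 (53.5%). It was -0.03 for Pvalb (49.3%) and -0.09 for Ncald (48.1%). The part of base composition or of the share in genes in these correlations was not tested. Pvalb, Hpcal1 and Ncald formed another set that ran together within groups, with r of 0.69 for Pvalb with both Hpcal1 and Ncald, and 0.67 for Hpcal1 with Ncald. With the mean of each name code within a group removed as well (74 libraries), these came to 0.39 for Pvalb with Hpcal1, 0.31 for Pvalb with Ncald and 0.20 for Hpcal1 with Ncald, while Hpca with Vsnl1 came to -0.69.

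**Figure D5:**
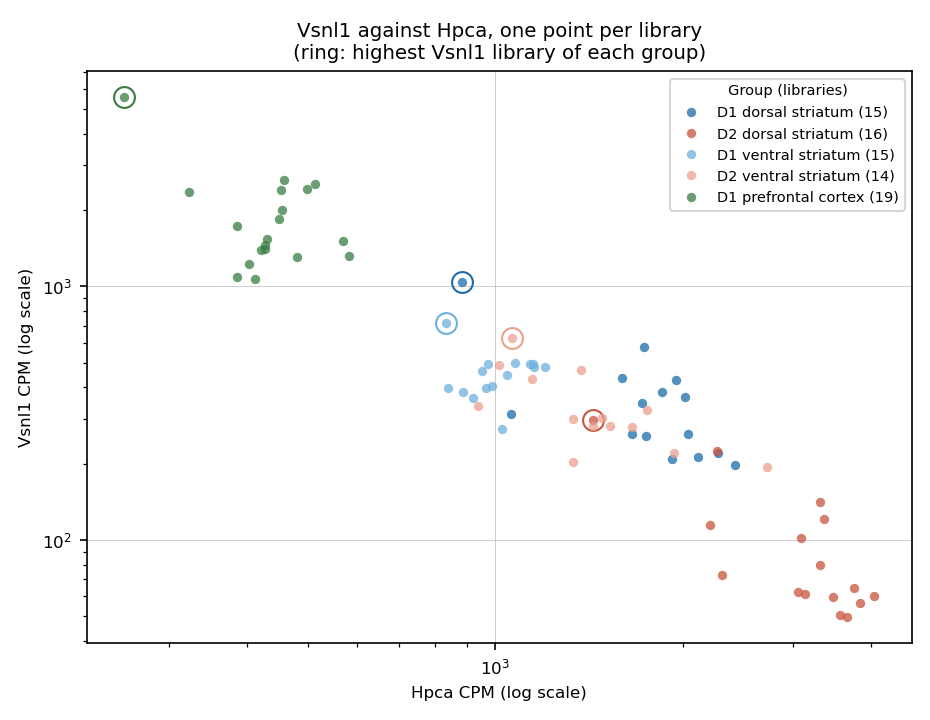
CPM of Vsnl1 against CPM of Hpca on log scales, with a point per library coloured by group; rings mark the library highest in Vsnl1 in each group. D2 dorsal striatum holds the lowest Vsnl1 (49.5 to 296 CPM) and highest Hpca (1433 to 4057 CPM), prefrontal cortex the reverse, and in 4 of the 5 groups the ringed library is also the lowest in Hpca.

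Among 8131 genes that averaged 5 CPM or more, the closest in pattern over the 79 libraries to each member were found by Pearson's r of log2(CPM + 0.5). Necab2 was closest to the calmodulin-dependent phosphodiesterase gene Pde1b (0.98) and to Ppp1r1b (0.96), which encodes DARPP-32. Ncald was closest to Stmn1 and Gng2 (0.97 each), Vsnl1 to Phyh and Sh3gl2 (0.95 each), Hpca to Rasd2 and Inf2 (0.94 each) and Calb1 to Akap9 and Zswim5 (0.94 each). Hpcal1 was closest to Rasgrf2 (0.93) and Tub (0.90), Hpcal4 to Pde1a (0.92) and Pea15a (0.91), and Calb2 to Pea15a (0.89) and 6330403K07Rik (0.87). Ncs1 was closest to Ppp2r5b (0.91) and Pdxp (0.83), and Pvalb to Myl4 (0.88) and Cryab (0.86). After group means were removed the r of Ncs1 with Ppp2r5b was 0.88, and that of Calb1 with Zswim5 0.27.

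Promoters are shown for Hpca, Vsnl1 and Necab2, 3 members whose levels separated D1 striatum from cortex without overlap in both regions; the RefSeq promoter table lists 7 of the 10 genes. The 250 bases before the outermost listed start site are given on the gene's strand from GRCm38.p6, with matches to the GC box GGGCGG on either strand in capitals.
Hpca, chr4:129121748-129121997, minus strand: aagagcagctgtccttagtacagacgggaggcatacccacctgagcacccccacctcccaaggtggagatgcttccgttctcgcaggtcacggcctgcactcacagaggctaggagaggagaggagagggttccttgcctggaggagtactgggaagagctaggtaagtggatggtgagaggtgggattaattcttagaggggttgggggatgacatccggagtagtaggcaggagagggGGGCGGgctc
Vsnl1, chr12:11436579-11436828, minus strand: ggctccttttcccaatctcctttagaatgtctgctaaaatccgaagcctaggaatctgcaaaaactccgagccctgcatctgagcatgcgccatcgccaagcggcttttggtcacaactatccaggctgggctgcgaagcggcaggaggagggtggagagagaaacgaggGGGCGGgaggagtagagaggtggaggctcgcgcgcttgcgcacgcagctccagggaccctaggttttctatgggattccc
Necab2, chr8:119446469-119446718, plus strand: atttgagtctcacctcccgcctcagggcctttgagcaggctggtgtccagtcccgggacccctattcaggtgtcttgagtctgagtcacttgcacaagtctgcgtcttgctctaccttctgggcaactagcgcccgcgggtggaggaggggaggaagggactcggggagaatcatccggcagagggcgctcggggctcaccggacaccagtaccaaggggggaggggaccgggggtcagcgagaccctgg
The windows shown for Hpca and Vsnl1 held 1 GC box each and that of Necab2 held 0, where 32.7% of the 32851 windows in the table held at least 1. Windows of other listed start sites held 2 and 0 GC boxes for Hpca and 0 for Vsnl1. The Hpca window shown lies inside the span given above for that gene, which comes from another annotation. None of the windows of the 7 listed members held the cyclic AMP response element TGACGTCA (1.55% of all windows) or the TATA box TATAAA (12.4%), in these letters on either strand. A match or its absence describes the letters of the window alone.

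Other EF-hand genes came from a list of 32, of which 31 were in the table. In dorsal striatum 11 of 22 tested differed between receptors, 8 higher in D1 and 3 in D2, against 25.9% of all genes. In ventral striatum 11 of 22 differed, 5 higher in D1 and 6 in D2, a share close to the 47.7% of all genes. Necab1, a relative of Necab2, ran opposite to it: its mean was 204 ± 50.0 CPM over the 16 D2 and 39.5 ± 4.66 CPM over the 15 D1 dorsal libraries (SD), with no overlap, a difference of -2.32 (SE 0.10, adjusted p 4.36e-20), and -1.37 in ventral striatum (SE 0.10, adjusted p 3.12e-13). Necab3 was higher in D1 dorsal striatum by 1.68 (SE 0.19, adjusted p 1.64e-08), also with no overlap, and Efhd2, which encodes swiprosin-1, by 2.88 (SE 0.28, adjusted p 4.07e-10). Between regions 12 of 23 differed in D1 (7 higher in dorsal, 5 in ventral; 34.6% of all genes) and 10 of 21 in D2 neurons (4 and 6; 28.5%). Kcnip1, an auxiliary subunit of A-type potassium channels from the same family, was higher in ventral striatum in D1 (dorsal minus ventral -2.37, SE 0.14, adjusted p 2.98e-15) and D2 neurons (-3.57, SE 0.17, adjusted p 2.43e-18), and S100a10, the annexin A2 partner p11, was higher in dorsal striatum (2.08 in D1, SE 0.15, adjusted p 9.72e-14). Prefrontal cortex differed from D1 dorsal striatum for 18 of 23 (12 higher in cortex, 6 lower; 54.8% of all genes) and from D1 ventral striatum for 19 of 23 (14 and 5; 62.8%), with Kcnip2 lower in cortex by -2.36 (SE 0.09, adjusted p 2.07e-23) and -2.16 (SE 0.10, adjusted p 1.63e-22).

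Of a list of 29 calmodulin targets, regulators and related enzymes, 13 of 28 tested differed between receptors in dorsal striatum (8 higher in D1, 5 in D2; 25.9% of all genes) and 21 of 28 in ventral striatum (13 and 8; 47.7%). Pde1a was higher in D1 by 2.22 in dorsal (SE 0.17, adjusted p 1.17e-12) and 1.23 in ventral striatum (SE 0.10, adjusted p 1.12e-11), without overlap in either. Camk4, a calmodulin-dependent kinase gene, was higher in D2, with D1 minus D2 at -0.54 (SE 0.12, adjusted p 0.00133) and -0.92 (SE 0.14, adjusted p 2.51e-06). Between regions 19 of 28 differed in D1 (11 higher in dorsal, 8 in ventral; 34.6% of all genes) and 16 of 28 in D2 neurons (9 and 7; 28.5%); neurogranin (Nrgn), which binds calcium-free calmodulin, was higher in dorsal striatum by 1.80 in D1 (SE 0.11, adjusted p 3.76e-15) and 1.30 in D2 neurons (SE 0.11, adjusted p 7.33e-12). In each cortical comparison 24 of 29 differed, 9 higher and 15 lower in cortex, against 54.8% of all genes for dorsal and 62.8% for ventral striatum, with Pde1b at -3.52 against dorsal (SE 0.11, adjusted p 6.07e-26) and -3.12 against ventral striatum (SE 0.10, adjusted p 8.6e-27). Adcy5, the striatal adenylyl cyclase gene, is on the list as a related enzyme and is not taken here as a calmodulin target. It fell by 3.39 from D1 dorsal striatum to cortex (SE 0.11, limma adjusted p 6.98e-26).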

How the data were processed

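Ribosome-bound mRNA of 79 mouse libraries was measured by RNA-seq. Per the submitters' processing notes, reads were handled with Trim Galore 0.4.2, cutadapt 1.9.1, FastQC and HISAT2 0.12.2 on GRCm38; the counting program, annotation and scaling total are not given in the sources used here. The deposited values are CPM by the authors. Each value was a whole multiple of what a single read is worth in its library (100% of values, within 0.01 reads), which gave depth and reads. From the CPM, limma 3.58.1 (R 4.3.3; lmFit, eBayes with trend) compared log2(CPM + 0.5) between the groups of each comparison alone, over genes with at least 1 CPM in as many libraries as the smaller group holds, with Benjamini-Hochberg adjustment over those genes and a threshold of 0.05; the receptor by region term came from the 4 striatal groups and the order of means from all 5. The fits were tested on simulated data with known changes. Alternatives were edgeR 4.0.16 (quasi-likelihood) on the recovered reads, median-ratio scaling, pseudocounts of 1 and 0.1, no filter, libraries of a single name code, name code, share in genes or number of males as a term, and omission of D2 ventral replicate 2; omission of the 2 farthest libraries of each group and of D2 dorsal replicate 1, and sets of consecutive names as a block, were added after seeing the data. No 2 libraries of a group agreed within counting noise (smallest chi-square per degree of freedom 7.96 over 592 pairs). One cortical marker of the original list is not reported here and is left out of the sums. The members, gene lists and markers were chosen with earlier results of these data known. Genes named from a list were up to 2 called genes with the largest difference in each direction, if the higher group averaged 5 CPM or more, and some of these were left out of the text. Sequences are from GENCODE M21 (coding) and RefSeq (promoters), aligned with Biopython.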

Additional observations from a re-analysis of the deposited data

Results flagged for a closer look

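The receptor difference of Ncald was larger in dorsal than in ventral striatum by 1.83 on the log2 scale, by a test of the difference of differences in limma (adjusted p 0.000455). Its mean and SD were 54.2 ± 22.0 CPM over 15 D1 and 8.15 ± 5.69 CPM over 16 D2 dorsal libraries, and 46.2 ± 16.5 CPM over 15 D1 and 23.9 ± 11.4 CPM over 14 D2 ventral libraries. For Vsnl1 the same test gave 1.45 (adjusted p 0.00073), with means of 367 ± 214 and 101 ± 69.1 CPM in D1 and D2 dorsal striatum and 453 ± 97.1 and 338 ± 123 CPM in D1 and D2 ventral striatum (SD, same libraries). Within EM libraries the Vsnl1 value was 1.42 and no longer passed (adjusted p 0.0538), while that of Ncald passed (1.60, adjusted p 0.000226). With runs of consecutive EM names as a block in limma, added after seeing the data, the Vsnl1 value of 1.42 passed (adjusted p 0.0212). The summed cortical glutamatergic neuron markers had medians of 100.5 and 10.7 CPM in D1 and D2 dorsal striatum and 80.1 and 23.0 CPM in D1 and D2 ventral striatum; their part in these results was not tested.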

How the results depend on the processing

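Of 68 tests of a member in a comparison, 48 passed, and 36 of these passed in the same direction under each of the 11 to 14 alternatives run; of the 20 that did not pass, 14 stayed so. Counts of members or of all genes called that moved by more than 1.5 times, both directions together, were these. In D1 minus D2 dorsal striatum, EM libraries alone gave 5 members and 1389 genes in place of 8 and 2871, and name code as a term gave 1664 genes. In ventral striatum the share in genes as a term gave 3 members and 1218 genes in place of 9 and 5443, and gave Ncs1 a difference of -0.012 in place of 0.45. OdP libraries alone gave 2074 genes in place of 3189 between the regions in D2 neurons, and name code as a term gave 480 genes in place of 313 for receptor by region. Besides those given above for receptor by region of Hpcal1 and without D2 ventral replicate 2 for Pvalb, calls were gained for Calb1 between regions in D1 neurons with edgeR (0.31, adjusted p 0.0451) and in D2 neurons with the share in genes (0.36, adjusted p 0.0043), for Ncs1 in D2 neurons with that share (-0.61, adjusted p 0.000184), for Pvalb in D2 neurons with name code (0.84, adjusted p 0.00587) or median ratios (0.84, adjusted p 0.0469), and for Calb2 between cortex and ventral striatum with name code (-0.43, adjusted p 0.0301). By direction, EM libraries alone gave 525 in place of 887 genes higher in dorsal striatum in D2 neurons and 43 in place of 84 negative values for receptor by region, where name code gave 158; omission of the 2 farthest libraries gave 351 in place of 229 positive ones. Some differences that did not pass changed sign, such as receptor by region of Calb2 with edgeR and that of Pvalb between receptors in ventral striatum with the share in genes (-0.29). EM libraries alone hold fewer samples; the other causes were not tested. Scaling also moved splits of all calls: prefrontal cortex over D1 dorsal striatum had 3766 higher and 2622 lower genes, against 3119 and 3472 with edgeR, and dorsal over ventral striatum had 1745 and 1500 in D1 and 1357 and 1325 in D2 neurons with edgeR. Apart from a single number that 1 D1 dorsal and 1 D1 ventral library share in their names, the labels give no replicate numbers shared across groups, but EM names run in 19 sets of consecutive numbers over the regions of a line, each with an equal number of males. Deviations of same-set libraries from their group means correlated at a median of 0.13 to 0.22 over the 4 regional comparisons, against -0.03 to 0.04 for libraries of other sets; 9 of 11, 6 of 8, 6 of 11 and 7 of 11 sets were over 0.1 (D1 and D2 striatum, cortex against dorsal and ventral). The labels do not say that a set shares mice, so the main tests treat the libraries as separate. Any such pairing is left out of their spread. With the set as a replicate block, added after seeing the data, 6, 6, 9 and 8 members passed in these comparisons, as without the block in the same libraries; for receptor by region 3 passed in place of 2, Vsnl1 (1.42) at adjusted p 0.0212 in place of 0.0538. Members under about 1 CPM, such as Calb2 in dorsal striatum, rest on few reads (0 to 187 in D1 libraries), which limits their precision.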

Other observations

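Genes that move calcium out of the cytosol or hold its stores differed by region. Of a list of 27 such genes, 23 were in the table; 16 of 20 tested differed between dorsal and ventral striatum in D1 neurons, 14 higher in dorsal and 2 in ventral, and 14 of 19 in D2 neurons, 13 and 1, where 34.6% and 28.5% of all genes passed and most of all calls were lower in dorsal striatum. The sodium, calcium and potassium exchanger gene Slc24a2 was at 259 ± 62.7 CPM (SD, n = 15) in D1 dorsal and 90.8 ± 16.7 (SD, n = 15) in D1 ventral striatum, without overlap, a difference of 1.49 (SE 0.12, limma adjusted p 1.41e-12), and it differed by 1.22 in D2 neurons (SE 0.11, adjusted p 5.96e-11). The plasma membrane pump gene Atp2b1 was higher in dorsal striatum by 1.20 in D1 (SE 0.11, adjusted p 3.14e-11) and 1.20 in D2 neurons (SE 0.10, adjusted p 1.89e-12), also without overlap. Its relative Atp2b4 ran the other way, at -0.91 in D1 (SE 0.12, adjusted p 3.24e-07) and -1.19 in D2 neurons (SE 0.11, adjusted p 5.96e-11), and was higher in D1 than D2 neurons in dorsal (1.29, SE 0.13, adjusted p 5.02e-10) and ventral striatum (1.02, SE 0.10, adjusted p 3.25e-10). Between receptors 7 of 19 genes of the list differed in dorsal striatum (3 higher in D1, 4 in D2; 25.9% of all genes) and 10 of 20 in ventral striatum (5 and 5), a share close to the 47.7% of all genes. Against D1 dorsal striatum 18 of 20 differed in prefrontal cortex, 4 higher and 14 lower, where 54.8% of all genes did. Against D1 ventral striatum 13 of 20 differed, 7 higher and 6 lower, a share close to the 62.8% of all genes.

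Levels of some members are given by name code within a group, without a test. In D2 dorsal striatum Ncald was at 12.1 ± 5.47 CPM (SD, n = 8) in EM and 4.21 ± 1.97 (SD, n = 8) in OdP libraries, and Pvalb at 3.24 ± 1.06 and 1.08 ± 0.891 CPM in the same libraries. In D2 ventral striatum Pvalb was at 1.95 ± 1.23 CPM (SD, n = 8) in EM and 0.258 ± 0.174 (SD, n = 5) in OdP libraries. What the codes stand for is not given in the sources used here.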
